A study of Mus musculus with 14 samples.

Results

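The Trav gene segments encode the variable part of the alpha chain of the T cell receptor (TCR), and 128 of the 32285 genes counted in the nodules carried a symbol that begins with Trav. They were read as raw counts of unique molecular identifiers (UMIs) in T-gated cells. A cell was T-gated when it held at least 1 UMI summed over Cd3d, Cd3e and Cd3g, subunits of the CD3 complex, and none of the B cell genes Cd79a, Cd79b and Ms4a1. Of 75503 cells that passed the filter, 21475 were T-gated. The cells came from white nodules of 7 mice of the Eif3e fl/fl Cγ1-Cre line (cKO) on a C57BL/6J background, in which Cre is expressed from the Ighg1 locus in activated B cells and removes Eif3e, a subunit gene of translation initiation factor eIF3. Each nodule gave 1 single-cell RNA library and 1 library of rearranged receptors. Receptors were profiled of B cells (BCR) in mouse 27 (liver, 12 months), mouse 29 (lung, 12 months), mouse 31 (spleen, 13 months), mouse 33 (thymus, 16 months) and mouse 34 (lung and thymus, 9 months), and of T cells (TCR) in mouse 30 (liver, 14 months) and mouse 32 (spleen, 12 months). Mice 29, 31, 32 and 34 also carried the Rosa26-YFP reporter. The nodule of mouse 27 was a secondary tumor grown in a Rag2-/- recipient, which makes no T or B cells of its own, and mouse 34 received a mixture of JHT and cKO bone marrow. No nodule from a healthy or Cre-negative mouse was analysed here, and each group holds single mice, 5 BCR-profiled and 2 TCR-profiled.

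An alpha chain is made in the thymus when a Trav segment is joined to a Traj segment upstream of the constant gene Trac. The bases at the junction form the third complementarity-determining region (CDR3), which differs between T cells and is inherited by all descendants of a cell, so a shared CDR3 marks a clone. The alpha locus rearranges on both chromosomes, and a mature T cell can keep an in-frame alpha chain from each of them. A part of the mouse locus is duplicated, and the copies carry a d or an n in their names (Trav14d-3, Trav6n-7), while a dv suffix marks segments that the delta chain can use too. All 128 symbols matched a RefSeq gene of GRCm38.p6, between positions 52427967 and 53977678 of chromosome 14. They comprised 112 V segments and 16 pseudogenes in 23 numbered subfamilies, with 39 d copies and 34 n copies.

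The alpha chains of the expanded clones are shown first, because the values below turn on them. A clone was defined by the beta chain alone, as the cells that share the commonest TRB V gene, J gene and CDR3 of a library, so that alpha chains took no part in choosing its cells. The beta chain was TRBV1 with TRBJ2-1 in mouse 30 (1973 cells) and TRBV26 with TRBJ2-5 in mouse 32 (4794 cells). In the V regions the first 2 complementarity-determining regions are in capitals, and in the CDR3 sequences the capitals mark the first codon, that of the conserved cysteine, and the last codon, that of the conserved phenylalanine. All were read from the contigs.
TRAV9-2 V region, mouse 30 clone: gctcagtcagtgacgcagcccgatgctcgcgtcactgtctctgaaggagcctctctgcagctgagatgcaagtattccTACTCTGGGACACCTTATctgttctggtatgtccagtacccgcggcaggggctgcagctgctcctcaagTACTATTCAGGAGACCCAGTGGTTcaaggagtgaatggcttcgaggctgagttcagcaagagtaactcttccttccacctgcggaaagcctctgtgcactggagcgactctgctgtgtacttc
TRAV9-2 with TRAJ21 CDR3, mouse 30 clone: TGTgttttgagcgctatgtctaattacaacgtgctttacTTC
TRAV14D-3-DV8 V region, mouse 32 clone: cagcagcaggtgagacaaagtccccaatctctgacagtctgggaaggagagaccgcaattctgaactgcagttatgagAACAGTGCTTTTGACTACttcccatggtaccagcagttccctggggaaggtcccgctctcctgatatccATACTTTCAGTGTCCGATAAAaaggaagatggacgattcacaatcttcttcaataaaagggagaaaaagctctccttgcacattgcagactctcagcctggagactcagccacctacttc
TRAV14D-3-DV8 with TRAJ17 CDR3, mouse 32 clone: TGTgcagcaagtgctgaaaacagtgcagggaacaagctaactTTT
TRAV6N-7 V region, mouse 32 clone: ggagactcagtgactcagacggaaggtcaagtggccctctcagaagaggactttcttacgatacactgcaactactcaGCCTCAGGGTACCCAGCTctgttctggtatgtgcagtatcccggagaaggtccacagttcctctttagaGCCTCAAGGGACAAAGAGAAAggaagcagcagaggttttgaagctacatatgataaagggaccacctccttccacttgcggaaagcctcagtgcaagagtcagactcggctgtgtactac
TRAV6N-7 with TRAJ30 CDR3, mouse 32 clone: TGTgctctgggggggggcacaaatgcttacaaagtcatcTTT

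The clone of mouse 30 held a single alpha chain in its contigs and the clone of mouse 32 held a pair. In mouse 30, TRAV9-2 with TRAJ21 was found in 947 of 1973 clone cells, or 48.0% (95% Clopper-Pearson interval 45.8 to 50.2%), with a median of 2 UMIs per contig. No other TRA rearrangement was among the contigs of any clone cell. In mouse 32, TRAV6N-7 with TRAJ30 was found in 3617 of 4794 clone cells (75.4%, 74.2 to 76.7%) and TRAV14D-3-DV8 with TRAJ17 in 3110 (64.9%, 63.5 to 66.2%), each with a median of 4 UMIs. Both alpha chains were assembled in 2395 of these cells (49.96%, 48.5 to 51.4%), at least 1 of them in 4332 (90.4%), and no other rearrangement was seen. Clone cells held Cd4 UMIs far more often than UMIs of Cd8a or Cd8b1. Among T-gated clone cells, 606 of 1867 in mouse 30 and 2315 of 4429 in mouse 32 held Cd4 alone, against 2 and 20 with Cd8a or Cd8b1 alone. In the non-clonal cells of mouse 32, CD8 cells (133) outnumbered CD4 cells (49) of 368. These intervals cover counting error only, and each clone comes from 1 mouse.

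In the RNA libraries each clone was led by 1 Trav segment, with a second segment at a lower level. A cell's leading segment is the Trav gene with the most UMIs in it, without a tie. Trav9-2 (chromosome 14, 53591080 to 53591504) led 982 of the 1076 clone cells of mouse 30 that had a leading segment (91.3%), and held 1927 of the clone's 2299 Trav UMIs. Its level in the clone was 393 UMIs per 1000000 UMIs of the pooled cells (CPM; Poisson interval 376 to 411), against 17.9 (10.01 to 29.5) in the non-clonal cells, which carry another beta chain. Trav14d-3-dv8 (53078547 to 53079045) led 3663 of 3778 clone cells of mouse 32 (96.96%) and held 15802 of 17417 Trav UMIs, at 616 CPM (607 to 626) in the clone against 33.7 (25.5 to 43.8) in non-clonal cells. Each of these segments was near 0 in the other mouse's clone, with 0.204 CPM of Trav14d-3-dv8 in the clone of mouse 30 and no UMI of Trav9-2 in that of mouse 32.

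The second RNA segment of mouse 32 was of the same subfamily as the TRAV6N-7 contig, under another gene name. Trav6-7-dv9 (53709943 to 53710419) held 1437 UMIs in the clone, 56.0 CPM (53.2 to 59.0), against 4.21 (1.69 to 8.68) in non-clonal cells. The gene named by the contigs, Trav6n-7, held 4 UMIs in the clone, and its copy Trav6d-7 held 10. Clone cells with a TRAV6N-7 contig held a Trav6-7-dv9 UMI in 31.4% of cases (3409 cells, median 4342 UMIs), and those without it in 6.96% (1020 cells, median 3071.5 UMIs), so depth also differed between them. The commonest contig V regions of TRAV6N-7 and TRAV6D-7 were identical over 267 bases, and TRAV6-7-DV9 differed from them by 5 bases. Reads of such near-identical copies can be split or lost in counting, so the level of each Trav6 copy is uncertain. The nearest copy among the contigs of these mice differed by 5 bases for TRAV9-2 (TRAV9D-3) and by 8 for TRAV14D-3-DV8 (TRAV14-3), so the same limit holds for Trav9-2. Both RNA segments were seen together in 1054 clone cells, Trav14d-3-dv8 alone in 2767, Trav6-7-dv9 alone in 88 and neither in 520.

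Mouse 30 had a second RNA segment with no contig behind it. Trav21-dv12 (53876016 to 53876752) held 304 UMIs in the clone, 62.0 CPM (55.2 to 69.4), and was found in 250 of 1867 T-gated clone cells, in 176 of them together with Trav9-2. None of the 1973 clone cells had a TRAV21-DV12 contig, which allows a share of up to 0.152% of cells with such a contig. The clone's own TRAV9-2 contig was found in only 48.0% of them, and the paper states that clonotypes were filtered for productive ones. The limit is thus on contigs and not on the rearrangement itself. Clone cells with a TRAV9-2 contig held Trav21-dv12 at 65.5 CPM (56.5 to 75.5) and those without it at 57.0 CPM (47.0 to 68.4), and these intervals overlap. Among non-clonal cells 46 Trav21-dv12 UMIs were counted (54.9 CPM, 40.2 to 73.2), and once cells with a TRAV21-DV12 contig or a TRBV3 contig were set aside, 1 UMI remained in 258 cells, 1.40 CPM (0.0354 to 7.80). In pairs of leading segments, Trav21-dv12 stood with Trbv1, the clone's beta segment, in 145 of 182 cells of the library, 82 of them clone cells. Trbv1 led 1502 of all 1897 cells with such a pair, a like share, so this pairing does not set Trav21-dv12 apart.

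**Figure D1:**
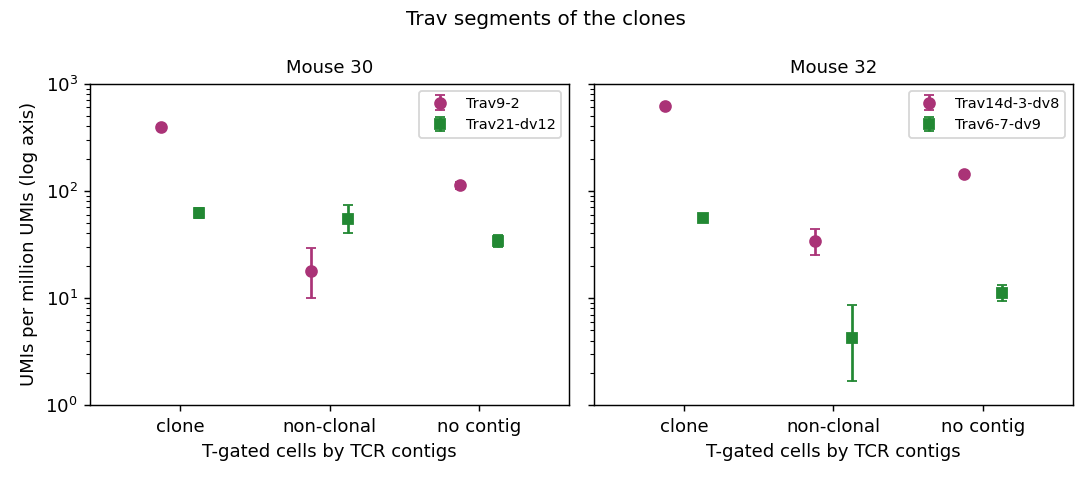
Level of 2 Trav segments in each TCR-profiled mouse, in CPM on a log axis, for T-gated cells of the clone, non-clonal cells with another beta chain and cells with no TCR contig. Points are pooled cells of 1 mouse and bars are Poisson intervals. Trav9-2 stood at 393 in the clone of mouse 30 and at 17.9 in its non-clonal cells, while Trav21-dv12 was at 62.0 and 54.9.

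Cells without any contig carried the same segments at lower levels. In mouse 30, Trav9-2 led 630 of 1159 T-gated cells with no contig and Trav21-dv12 led 167. In mouse 32, Trav14d-3-dv8 led 822 of 1090 such cells, Trav5-4 led 57 and Trav6-7-dv9 led 36. Cells with no contig held fewer UMIs (medians 1311 and 2464) than clone cells (2024 and 3985). Among cells with an alpha contig but no beta contig, Trav9-2 led 128 of 160 in mouse 30 and Trav14d-3-dv8 led 111 of 146 in mouse 32.

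Non-clonal T cells of the same nodules used many segments. They comprised 311 T-gated cells in mouse 30 and 368 in mouse 32, and none of them held an alpha contig of its clone. In mouse 30, Trav21-dv12 led 22 of 158 cells with a leading segment (13.9%), Trav4-4-dv10 13 (8.23%) and Trav13-2 10 (6.33%). In mouse 32, Trav14d-3-dv8 led 27 of 166 (16.3%), Trav5-4 22 (13.3%) and Trav12-2 8 (4.82%). Trav14d-3-dv8 is also the leading segment of the clone of this mouse. Of the 264 TRA contigs of its non-clonal cells, 4 named TRAV14D-3-DV8, 21 TRAV5-4 and 5 TRAV12-2. The effective number of segments, the inverse Simpson number, which is the count of equally used segments that would give the same chance of drawing a pair alike, was 22.3 in mouse 30 and 17.5 in mouse 32, against 1.19 and 1.06 within the clones. Part of this use came from small clonotypes, whose alpha CDR3s are printed to show that they are unlike those of the clones.
TRAV13D-2 with TRAJ42, mouse 30, paired with TRBV16: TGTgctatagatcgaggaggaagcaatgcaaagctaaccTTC
TRAV21-DV12 with TRAJ22, mouse 30, paired with TRBV3: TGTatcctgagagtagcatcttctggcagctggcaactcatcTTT
TRAV3D-3 with TRAJ11, mouse 32, paired with TRBV15: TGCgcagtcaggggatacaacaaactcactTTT
TRAV14D-3-DV8 with TRAJ37, mouse 32, paired with TRBV3: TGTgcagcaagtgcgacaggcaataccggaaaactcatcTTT
TRAV5-4 with TRAJ56, mouse 32, paired with TRBV5: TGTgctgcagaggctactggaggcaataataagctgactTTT
These beta chains were found in 37 and 26 cells of mouse 30 and in 39, 29 and 29 cells of mouse 32. The TRAV21-DV12 clonotype accounted for 37 of its 38 Trav UMIs as Trav21-dv12. In the TRBV3 clonotype of mouse 32, 37 of 38 Trav UMIs were Trav14d-3-dv8, where contigs named TRAV13D-2 in 12 cells and TRAV14D-3-DV8 in 3. The TRBV15 clonotype of mouse 32 was of CD8 cells (36 of 38 T-gated cells) and held only 4 Trav UMIs, none of them under the name of its contig. The third clonotype of mouse 30, TRBV20 in 15 cells with TRAV12D-3, held 14 Trav UMIs, 6 of them Trav4-3.

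Across genes, clone and non-clonal cells were compared in a model with the mouse as a block (edgeR quasi-likelihood test on UMI sums per mouse and class, 2 mice, Benjamini-Hochberg adjustment over 11440 genes). Of the 128 Trav genes, 14 passed the filter on low counts, and none was called at an adjusted p of 0.05, where percent called over all genes was 0. At an unadjusted p under 0.05, 10 Trav genes were lower in the clone and none higher (4.38% of all genes lower), and DESeq2 called 8 lower (1.26% of all genes). The fit has 1 residual degree of freedom. Each clone has segments of its own, so none could be higher in the clone of both mice. A clone inherits its alpha chains, so all other Trav genes are low in it from the choice of cells. The counts of lower genes are thus no separate result. Trav13-1 stood at 0 and 0.156 CPM in the clones of mice 30 and 32 against 13.1 and 15.0 in non-clonal cells (edgeR log2 fold change of -6.94, SE 0.83, adjusted p = 0.249). Trav5-4 stood at 0 and 0.273 CPM against 4.77 and 27.7 (-6.80, SE 0.70, edgeR adjusted p = 0.249), and Trav4-3 at 0.204 and 0.0390 CPM against 15.5 and 9.03. All 3 were lower in the clone of both mice. Of the receptor genes on the fixed list 7 were tested and none was called. Trac, the alpha constant gene, was at 118 and 199 CPM in the clones and at 159 and 93.3 CPM in non-clonal cells.

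T cells of the BCR-profiled nodules used a broad set of segments, except in mouse 31. Among cells with a leading segment, the commonest was Trav14d-3-dv8 or Trav9-2 in mouse 27 (each 11.4%, 19 of 166), Trav3-3 in mouse 29 (11.1%, 59 of 533), Trav4-4-dv10 in mouse 31 (30.6%, 78 of 255), Trav9-2 in mouse 33 (6.73%, 87 of 1293) and Trav6n-6 in mouse 34 (5.85%, 20 of 342). In the TCR-profiled nodules it was Trav9-2 for mouse 30 (68.5%, 1749 of 2553) and Trav14d-3-dv8 for mouse 32 (89.2%, 4623 of 5180). The 2 groups did not overlap, and mouse 31 was the highest of the BCR-profiled mice. The mean was 13.1% ± 10.1 (SD, n = 5) in BCR-profiled and 78.9% (n = 2) in TCR-profiled nodules, a difference of 65.7 percentage points (exact two-sided permutation test over mice, p = 0.0952, adjusted over 4 measures 0.127). That is the smallest p that 21 splits of the mice allow, so the design cannot pass 0.05. How nodules were allotted to BCR or TCR profiling is not given in the sources used here, so the groups may have been set by what the nodules held.

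The effective number of segments gave the same order. For mice 27, 29, 31, 33 and 34 it was 22.4, 27.5, 8.72, 35.5 and 42.9, with a mean of 27.4 ± 13.0 (SD, n = 5), and for mice 30 and 32 it was 2.07 and 1.25 (difference -25.7, exact permutation p = 0.0952). Pairs of a leading Trav and a leading Trbv segment point to single clonotypes more closely than either segment does. The commonest pair held 7 of 100 cells of mouse 27 and 6.28, 11.5, 2.83 and 2.64% of those of mice 29, 31, 33 and 34, against 68.7 and 84.9% for mice 30 and 32 (difference 70.8 percentage points, exact permutation p = 0.0952). In mouse 30 this was Trav9-2 with Trbv1 in 1303 of 1897 cells, and in mouse 32 Trav14d-3-dv8 with Trbv26 in 3598 of 4237. With clone cells left out, the commonest segment held 51.9 and 68.5% of cells of mice 30 and 32 and the commonest pair 41.3 and 42.7%, at effective numbers of 3.44 and 2.11. The differences were then 47.1 and 35.9 percentage points and -24.6 segments, each with exact permutation p = 0.0952, and cells without a contig were still included. Without the transplanted tumor of mouse 27 and the chimera of mouse 34, the differences were 62.7 and 69.9 percentage points for the commonest segment and pair and -22.2 for the effective number, and the groups still did not overlap (exact permutation p = 0.2, the smallest that 3 against 2 mice allow).

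**Figure D2:**
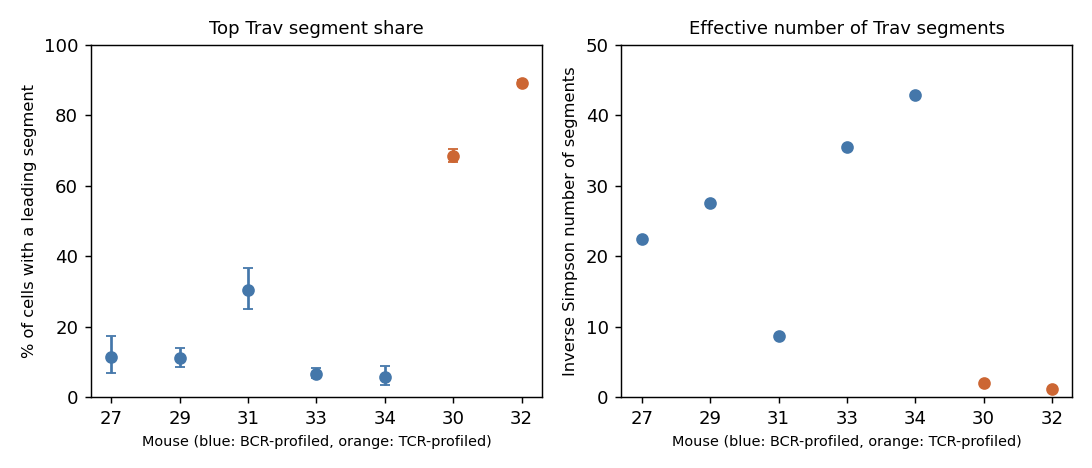
Share of cells with the commonest leading Trav segment (left, in percent, with Clopper-Pearson intervals) and inverse Simpson number of leading segments (right), 1 point per mouse. The BCR-profiled mice sit between 5.85 and 30.6% and between 8.72 and 42.9 segments, and the TCR-profiled mice at 68.5 and 89.2% and at 2.07 and 1.25 segments.

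Mouse 31 stood apart through Trav4-4-dv10 (53683677 to 53684177). The segment held 181 of the 588 Trav UMIs of its T-gated cells and led 24 of 56 CD4 cells with a leading segment (42.9%, 29.7 to 56.8%). In the other BCR-profiled mice it led 1.205, 5.63, 1.78 and 2.34% of cells (mice 27, 29, 33 and 34). It was paired with Trbv19 in 19 of the 33 cells that also had a leading Trbv segment. The next pairs of this mouse were Trav12-2 with Trbv5 in 16 cells and Trav8n-2 with Trbv14 in 15, of which 9 were CD8 cells and none CD4. Trav8n-2 led 10 of 36 CD8 cells with a leading segment. T-gated cells of mouse 31 also held the most RNA of Cd74, the MHC class II invariant chain of B cells and other antigen-presenting cells, and of Ighm, the IgM heavy chain. Cd74 was at 1108 CPM and Ighm at 73.8 CPM, against 296 to 634 and 0 to 31.5 CPM in the other BCR-profiled mice, and their part in these shares was not tested.

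In mouse 27 Trav9-2 was found mostly in CD8 cells. It led 18 of 49 CD8 cells (36.7%, 23.4 to 51.7%), and 7 of its cells were paired with Trbv3, all of them CD8. Trav16d-dv11 came first among CD4 cells, with 7 of 51. In mouse 29, Trav3-3 led 12 of 75 CD8 cells, and Trav6-1, Trav12-1 and Trav12-3 each stood with Trbv17, in 15, 12 and 7 cells. The thymus nodule of mouse 33 was led by Trav9-2 as well, but with Trbv3 in 30 cells, of which 12 were CD4 and none CD8, and with Trbv1 in 15 cells, of which 12 were CD8 and none CD4. Trav9-2 with Trbv1 was the pair of the mouse 30 clone, of which 606 of 1867 T-gated cells held Cd4 alone and 2 held Cd8a or Cd8b1 alone. In mouse 34, Trav10 and Trav10d each stood with Trbv4 in 7 cells, of which 6 and 7 were CD8. Genes of immature thymocytes (Rag1, Rag2, Ptcra and Dntt), which mark cells that still rearrange their receptors, reached at most 1.85 CPM in T-gated cells of any library, the thymus included.

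**Figure D3:**
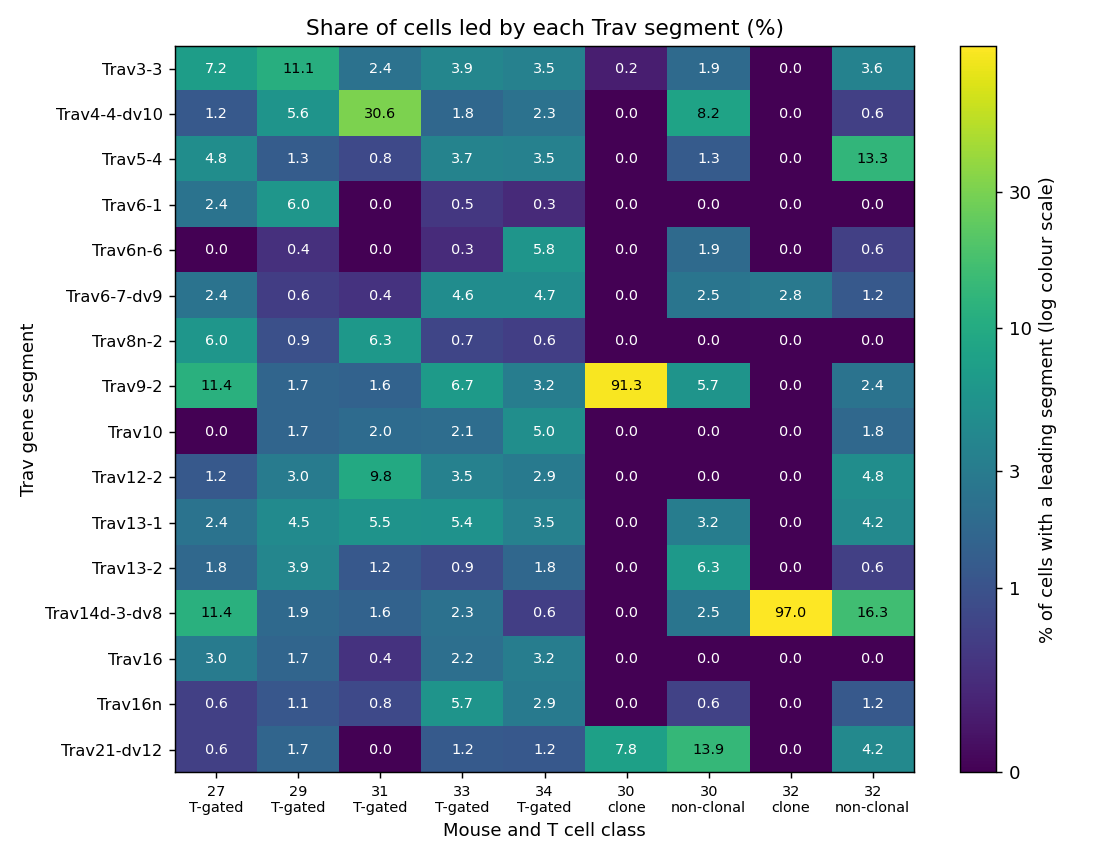
Percent of cells led by each of 16 Trav segments (rows) in T-gated cells of the 5 BCR-profiled mice and in clone and non-clonal cells of mice 30 and 32 (columns). Colour is on a log scale, after a small constant was added so that 0 can be drawn, and the printed values are the percents. The clones are taken up by Trav9-2 (91.3) and Trav14d-3-dv8 (96.96), and Trav4-4-dv10 stands out in mouse 31 (30.6).

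Across the BCR-profiled mice the share of a segment varied widely. Of the Trav genes, 32 led a cell in all 5 mice, and 8 led at least 1% of cells in each. Among the 5 segments with a median share of at least 3%, Trav13-1 had the smallest SD (1.31 percentage points), with 2.41, 4.50, 5.49, 5.41 and 3.51% in mice 27, 29, 31, 33 and 34, and 3.16 and 4.22% in the non-clonal cells of mice 30 and 32. Next by their median over the 5 mice came Trav3-3 (3.94%, range 2.35 to 11.1%), Trav5-4 (3.51%, 0.784 to 4.82%) and Trav9-2 (3.22%, 1.57 to 11.4%), whose ranges overlap. Trav1, the segment of mucosal-associated invariant T cells, led 18 of 1293 cells in mouse 33 (1.39%) and 1 or 2 cells in each of the other BCR-profiled mice. The shares there were 0.602, 0.188, 0.784 and 0.292% in mice 27, 29, 31 and 34. Of the 18 cells 4 were CD4 and 8 were CD8 cells. Whether any of them were mucosal-associated invariant T cells was not tested.

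Fitted across genes, T cells of TCR-profiled and BCR-profiled nodules gave no Trav call in edgeR (UMI sums per mouse, 5 against 2, 13514 genes tested). Of 49 Trav genes tested, none passed an adjusted p of 0.05, beside 0.00740% of all genes called. At an unadjusted p under 0.05, 23 Trav genes were lower and 2 higher in TCR-profiled nodules (4.75 and 3.47% of all genes), and DESeq2 called 11 lower and none higher (1.71% of all genes lower). The median log2 fold change was -2.74 over the tested Trav genes and -0.01 over all genes tested. Most T-gated cells with a beta contig were of the clone, 1867 against 311 in mouse 30 and 4429 against 368 in mouse 32. Trav genes other than the clone's own are low in such cells by inheritance. Their lower levels in the pooled T cells, those of Trav16 and Trav12-2 included, are thus no separate result. Trav16 stood at 6.92, 3.39, 3.28, 5.79 and 13.9 CPM in mice 27, 29, 31, 33 and 34 and at 0.825 and 0.437 CPM in mice 30 and 32. The groups did not overlap (log2 fold change -3.56, SE 0.81, edgeR adjusted p = 0.331). Trav12-2 was likewise lower in both TCR-profiled mice than in any other, at 0.450 and 0.534 CPM against 2.97 to 28.7 CPM (-4.40, SE 1.02, edgeR adjusted p = 0.341). Trav14d-3-dv8 stood at 438 CPM in mouse 32 but at 2.48 in mouse 30, below the 3.27 to 44.5 CPM of the BCR-profiled mice, and its fitted change of 4.13 became -2.51 without mouse 32. Trav9-2 turned from 2.87 to -5.24 without mouse 30. These folds are of levels in pooled T cells and do not by themselves separate fewer cells with a segment from less RNA per cell. Trav12-2 led 6 of 6911 T-gated cells in mouse 30 (6 UMIs) and 9 of 7370 in mouse 32 (22 UMIs). In mice 27, 29, 31, 33 and 34 it led 2 of 434, 16 of 2492, 25 of 621, 45 of 2952 and 10 of 695 (3, 23, 35, 115 and 17 UMIs). How the folds divide between the 2 was not tested. With clone cells left out the median Trav change was -1.95, but cells without a contig, which carried the clone's segments too, were still included. None of the 8 receptor genes tested was called.

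CD4 and CD8 T cells of the BCR-profiled nodules were compared within each mouse (edgeR with the mouse as a block, 5 mice, 6502 genes tested). No Trav gene passed the filter on low counts. The fit called 1.31% of all genes, 0.523% higher and 0.784% lower in CD8 cells, among them Tcrg-C2 and Tcrg-C4, constant genes of the gamma chain, which were higher in CD8 cells (edgeR log2 fold changes of 2.12 with SE 0.36 and adjusted p = 0.0111, and of 2.13 with SE 0.32 and adjusted p = 0.00607), the only calls among the 6 receptor genes tested. Without mouse 33 neither was called, without mouse 29 or mouse 34 only 1 was, and without the mouse as a replicate block neither was (5 genes called in all). Without the filter on low counts 88 Trav genes entered the fit, and 3 were called higher and 2 lower in CD8 cells, where 0.905% of all genes were called higher and 1.70% lower. The lower calls are thus close to the background. Trav4-4-dv10 was lower in CD8 cells (-2.65, SE 0.38, edgeR adjusted p = 7.91e-10), with CD4 levels of 2.47, 6.35, 220, 13.1 and 22.3 CPM in mice 27, 29, 31, 33 and 34 and CD8 levels of 0, 8.19, 11.8, 1.34 and 3.38 CPM. It was lower in 4 of 5 mice, with mouse 29 the exception, but all T-gated cells of mouse 27 together held only 3 of its UMIs. Trav14n-3 was lower (-2.31, SE 0.51, edgeR adjusted p = 0.000481), also in 4 of 5 mice. All T-gated cells of mice 27 and 31 held only 2 and 7 of its UMIs. Trav7-3 was higher in CD8 cells (3.11, SE 0.77, edgeR adjusted p = 0.00315), but in mice 31 and 34 only, with 15 and 32 UMIs there. Trav9-2 (1.22, edgeR adjusted p = 0.0111) was higher in CD8 cells of 3 of 5 mice and Trav12-2 (1.52, adjusted p = 0.0436) likewise. These sums rest on 69 to 1096 cells per mouse and class, cells of a few clonotypes share a segment, and the unfiltered fit is an alternative, not the main one.

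**Figure D4:**
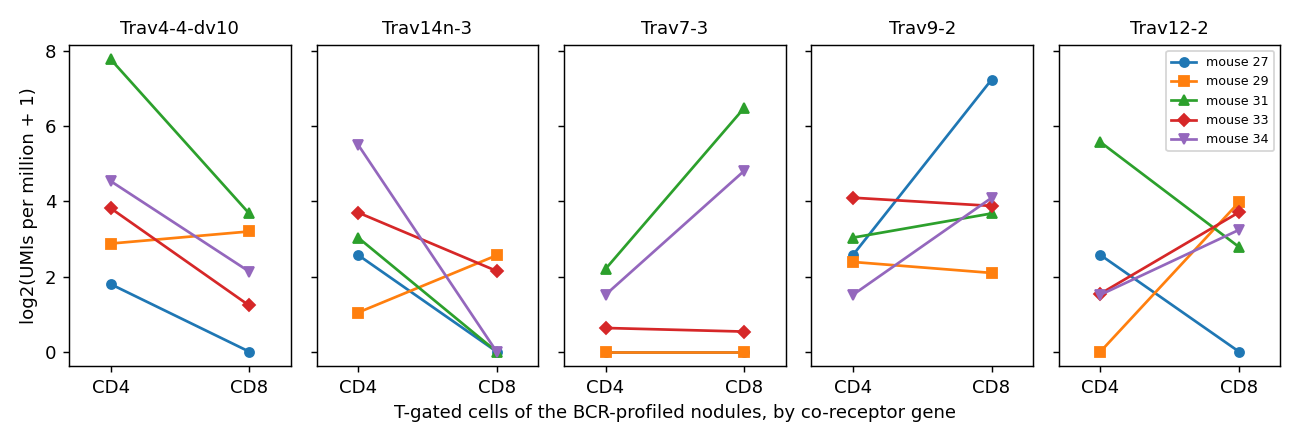
Level of the 5 Trav segments called in the unfiltered comparison, as log2 of CPM plus 1, in CD4 and CD8 T-gated cells of the 5 BCR-profiled mice. Lines join the classes of a mouse. Trav4-4-dv10 was lower in CD8 cells of every mouse but mouse 29, on few UMIs in mouse 27, while the rise of Trav7-3 is seen in mice 31 and 34.

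Contigs and RNA were then compared cell by cell in the TCR-profiled nodules, over cells with a single TRA V gene and a leading Trav segment. In mouse 30 both named the same gene in 834 of 846 clone cells (98.6%, 97.5 to 99.3%) and in 77 of 116 non-clonal cells (66.4%, 57.0 to 74.9%). In mouse 32 they did so in 597 of 1380 clone cells (43.3%, 40.6 to 45.9%), where a cell with only a TRAV6N-7 contig can be led by Trav14d-3-dv8 in RNA, and in 81 of 115 non-clonal cells (70.4%, 61.2 to 78.6%). Clone cells of mouse 32 without a TRAV14D-3-DV8 contig still held a Trav14d-3-dv8 UMI in 65.9% of cases (1465 cells). Counting any copy of the same subfamily as a match raised the non-clonal share of mouse 30 to 91.4% and left that of mouse 32 at 70.4%.

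In mouse 30 most mismatches in non-clonal cells were between copies of a subfamily, and in mouse 32 none was. The commonest mismatch of mouse 32 was a TRAV13D-2 contig with Trav14d-3-dv8 in RNA (8 cells). The d copies took different shares of the readouts. In non-clonal cells d copies made up 43.9% of 187 TRA contigs in mouse 30 and 37.1% of 264 in mouse 32, but 18.7 and 23.1% of the Trav UMIs of such cells. Of 46 contig V genes of non-clonal cells in mouse 30, 14 had no UMI in any T-gated cell of that library, and 13 of these were d or n copies. In mouse 32 it was 18 of 63, of which 15 were d or n copies. They held 39.0 and 40.5% of the non-clonal contigs, led by TRAV13D-2 with 25 contigs in mouse 30 and TRAV3D-3 with 27 in mouse 32. Cells of mouse 30 with a TRAV13D-2 contig were led most often by Trav13-2 in RNA (9 cells), and TRAV3D-3 differed by 4 bases from TRAV3-3. Over all contigs of both mice, 15 V genes had no UMI in either library, and their nearest other contig V gene differed by a median of 10 bases (range 4 to 121), against 7 (0 to 158) for the 61 V genes with UMIs.

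**Figure D5:**
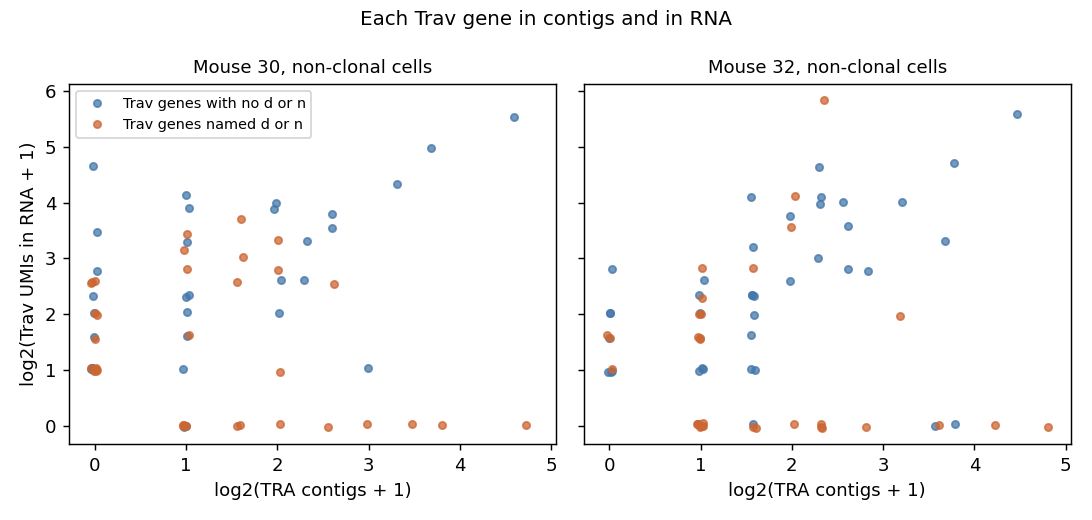
Each Trav gene as a point, by its number of TRA contigs (x axis) and its UMIs in RNA (y axis) in non-clonal cells of mouse 30 and mouse 32, both as log2 of the count plus 1, with a small random shift to separate points. Orange points are d or n copies. The row of points at 0 on the y axis holds genes with contigs but no UMI, up to 25 contigs in mouse 30 and 27 in mouse 32, most of them d or n copies.

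Trav11, the segment of invariant NKT cells, showed the same gap. Neither Trav11 nor Trav11d had a UMI in any of the 21475 T-gated cells of the 7 mice, which allows a share of up to 0.0140% of cells with a UMI. The n copy, Trav11n, held 11 UMIs in T-gated cells, with 1, 4, 3 and 3 in mice 31, 33, 34 and 30. Which cell type these came from was not tested. TRAV11 contigs were found in 15 cells of mouse 32 and 1 cell of mouse 30, all joined to TRAJ18, the invariant rearrangement of these cells. Of the 15 cells 5 held any Trav UMI, 8 UMIs in all. The CDR3s are shown because they are nearly alike. Positions are counted from 1 at the first base of the cysteine codon.
TRAV11 with TRAJ18, 11 cells of mouse 32 and the cell of mouse 30: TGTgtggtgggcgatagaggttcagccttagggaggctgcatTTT
TRAV11 with TRAJ18, 3 cells of mouse 32: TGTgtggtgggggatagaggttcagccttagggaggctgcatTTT
TRAV11 with TRAJ18, 1 cell of mouse 32: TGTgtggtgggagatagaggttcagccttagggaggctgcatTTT
The second sequence differed from the first by C12G and the third by C12A, a single base at the junction of V and J. Their beta chains used TRBV13-1, TRBV13-2, TRBV13-3, TRBV29, TRBV1, TRBV5 or a call shared by TRBV12-2 and TRBV13-2. Whether such cells were present in the BCR-profiled nodules cannot be read from the RNA counts.

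The position of the segments read differently in RNA and in contigs too. The 128 genes were split by their order on the chromosome into 43 far from Trac, 42 in the middle and 43 near Trac. All d and n copies lie in the first 2 stretches, 35 far from Trac and 38 in the middle. By leading RNA segment, the stretch near Trac held 52.4, 66.0, 76.1, 70.1 and 62.3% of T cells in mice 27, 29, 31, 33 and 34, and 70.9 and 65.1% of non-clonal cells in mice 30 and 32. By contigs it held 43.9% (36.6 to 51.3%) of the non-clonal TRA contigs of mouse 30 and 52.7% (46.4 to 58.8%) of those of mouse 32, while the stretch far from Trac held 45.5 and 36.7%, against 17.7 and 9.04% by RNA. In mouse 30 the intervals for the near stretch do not overlap between the readouts (63.1 to 77.8% by RNA). Segment use in the BCR-profiled nodules, where only RNA was available here, carries this limit.

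Detection of Trav UMIs set the depth of all RNA values. Thinned to 1000 UMIs per cell, the T-gated cells with a Trav UMI made up 31.2, 15.8, 33.3, 18.6 and 31.5% for mice 27, 29, 31, 33 and 34, and 29.98 and 42.6% for mice 30 and 32. The groups overlapped (26.1% ± 8.23, SD, n = 5, against 36.3%, n = 2, exact two-sided permutation p = 0.381). Unthinned, the shares were 44.7, 24.3, 45.9, 48.1, 54.7, 40.6 and 73.6%, at median depths of 1468 to 3628 UMIs. B-gated cells, which should lack Trav transcripts, held a Trav UMI in 0.144 to 1.92% of cells in mice 27, 29, 33 and 34 at median depths of 5192 to 8700 UMIs, in 6.31% of 8385 cells of mouse 31 (7013 UMIs), in 5 of 55 cells of mouse 30 and in 24 of 146 cells of mouse 32 (24446 UMIs). Trav UMIs outnumbered Trac UMIs in T-gated cells of every library, from 347 against 139 in mouse 27 to 20694 against 6149 in mouse 32. In all 31902 Trav UMIs were counted in T-gated cells. Of the members 96 were seen and 34 were seen in all 7 libraries. Of the 32 never seen, 26 were d or n copies, and 5 of 16 pseudogenes were seen.

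Other cells and RNA in the gate were measured with fixed marker lists. In T-gated cells the T cell list (Trac, Cd247, Lck, Cd2 and Cd28) summed to 762 to 1464 CPM, with at least 1 UMI in 68.0 to 93.4% of cells. The myeloid list summed to 260 to 1920 CPM. It was above the T cell list in mouse 29 (1920 against 762 CPM), mouse 30 (1593 against 1030) and mouse 32 (1454 against 838). At least 1 UMI was held for the NK list in 4.46 to 61.4% of cells and for the myeloid list in 3.92 to 31.1%. For the gamma-delta list it was 4.70 to 14.5%, and for the erythroid list 0 to 22.3% (highest in mouse 32, at 1098 CPM). For the invariant NKT list, of which only Zbtb16 was detected, it was 0.461 to 3.65%. Eomes held the most UMIs of the NK list in every library. In mouse 33, with the highest NK share, it held 4619, Klrk1 806, Klre1 204, Klrb1c 26 and Ncr1 0. The gamma-delta list of mouse 27 held 42 UMIs of Tcrg-C2, 14 of Tcrg-C4 and none of Trdc or Trdv4. These shares are thus not shares of NK or gamma-delta cells. Of B cell genes, Cd74 was at 108 to 1108 CPM, Ighm at 0 to 73.8 CPM and Pax5 at 0.600 to 31.2 CPM. For all of these, their part in the Trav shares was not tested. Mouse 29, with the lowest Trav share, held a myeloid UMI in 26.2% of T-gated cells and an NK UMI in 10.9%. In mouse 32, with the highest Trav share, these were 31.1 and 4.91%. Pairs of libraries shared 96 to 286 cell barcodes, 0 to 56 of them T-gated in both. Eif3e, the floxed gene, was at 107 to 170 CPM in T-gated and 68.2 to 226 CPM in B-gated cells. The Cre driver acts in B cells and the counted part of the transcript is not given, so this does not check the deletion.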

How the data were processed

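Single-cell RNA and V(D)J libraries of 1 nodule from each of 7 mice were used. The deposited RNA matrices are raw counts of the UMIs of each gene in a cell, and the deposited contig tables hold UMI and read counts per assembled contig, which the authors made with SeekSoulTools vdj, per the labels on GRCm38 (mm10). The aligner, annotation and cell calling of the RNA counts are not given in the sources used here, and sources differ on the end of the RNA that was read: the methods name a 3′ kit for the RNA libraries and the labels a 5′ kit. Cells with at least 201 UMIs, 101 genes and at most 10% mitochondrial UMIs were kept. Doublets were not called, beyond the B cell genes of the gate. RNA and contigs were joined by barcode. CPM is UMIs per 1000000 UMIs of the pooled cells. UMI sums per mouse were tested with edgeR 4.0.16 in R 4.3.3 (TMM, filterByExpr, quasi-likelihood test, adjusted p of 0.05), with DESeq2 1.42.0 as an alternative, and values per mouse with exact permutation tests (Python 3.11.15, SciPy 1.17.1). Classes of 1 mouse were paired because they come from the same animal, and the mouse was the replicate block. Tests were tried on simulated counts. Intervals are 95% Clopper-Pearson or Poisson intervals and cover counting error only, a count of 0 allows 3 counts, and p-values measure the spread between single nodules. Trav genes named are the 3 commonest per mouse and T cell class, those of clone contigs or with at least 5% of a clone's Trav UMIs, Trav11, Trav11d and Trav1, those called by edgeR, and those of the 3 commonest non-clonal clonotypes. Others were named after their values were seen. The members and lists were chosen with earlier results of these data known. Alternatives were other filters, gates, clone definitions, scalings and tools, each mouse left out, and, chosen after seeing the data, mice 27 and 34 left out together. The summed B cell marker list is not reported here.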

Additional observations from a re-analysis of the deposited data

Results flagged for a closer look

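In 4 of 9 sets of 5 BCR-profiled mice that were examined, 1 mouse lay far from the others by Dixon's criterion. Chance meets it in about 1 set in 20 where sets are chosen without regard to their values. The segments examined were each the commonest in at least 1 of these mice, so that rate does not apply to them. The share of the commonest leading segment was 30.6% in mouse 31, with the next mouse at 11.4%. Its segment, Trav4-4-dv10, led 30.6% of cells there and 5.63% in the next mouse, so both values describe the same cells. Trav14d-3-dv8 led 11.4% of cells in mouse 27, the transplanted tumor, and 2.32% in the next mouse. Trav6n-6 led 5.85% in mouse 34, the marrow chimera, and 0.375% in the next.

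Trav UMIs were also found outside the T cell gate. In B-gated cells of mouse 31, Trav15-1-dv6-1 stood at 4.55 CPM (310 UMIs, 4.06 to 5.09) and Trav14n-1 at 1.204 CPM (82 UMIs), against at most 0.0682 and 0 CPM in B-gated cells of the other BCR-profiled mice. Trav15-1-dv6-1 was present in B-gated cells of the most frequent BCR clonotype (4.81 CPM), of other BCR clonotypes (5.80 CPM) and without a BCR contig (3.703 CPM), while the T-gated cells of the same mouse held 2 UMIs (1.64 CPM). Cells outside both gates held a Trav UMI in 15.1% of cases in mouse 32 and in 12.4% in mouse 30, both above the highest value of the BCR-profiled mice, 4.76%.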

How the results depend on the processing

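Directions and calls held in most settings. Of the values that answer a comparison, 86 kept their direction and side of the threshold or stayed within the spread. Another 10 moved and 4 gained calls. Of the values for single genes and the shares of single mice together, 177 held, 38 moved, 13 gained a call and 2 reversed. Those that moved were all shares of single mice, outside the interval of their main value. The reversed values were fitted log2 fold changes: with 1 mouse left out, that of Trav14d-3-dv8 ranged from -2.51 (without mouse 32) to 5.30 and that of Trav9-2 from -5.24 (without mouse 30) to 3.88. The mouse left out where each reversed carries the clone of that segment. Trav calls rose from 0 to 5 between CD8 and CD4 cells without the filter on low counts, to 11 between TCR-profiled and BCR-profiled nodules with DESeq2, and between clone and non-clonal cells to 8 with DESeq2 and 4 without the filter. The cause was not tested. Over all genes, CD8 against CD4 cells gave 85 calls, 5 with no replicate block, 512 without the filter and 31 to 181 with a mouse left out. TCR-profiled against BCR-profiled nodules gave 1 call, 280 with DESeq2 (230 genes had no adjusted p) and 0 to 33 with a mouse left out, 33 of them without mouse 29. Clone against non-clonal cells gave 0, 194 with DESeq2 and 105 without the filter. Without the replicate block Trav calls were 0 of 14 tested between clone and non-clonal cells, and 0 between CD8 and CD4 cells, where no Trav gene was tested, so that count says nothing of stability. Leaving out a mouse of the clone comparison was not run, since no residual degrees of freedom remain.

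With contigs of at least 3 UMIs, TRAV9-2 was found in 10.4% of mouse 30 clone cells, TRAV14D-3-DV8 in 47.1% and TRAV6N-7 in 52.9% of mouse 32 clone cells, and the share of cells where RNA and contig named the same gene became 53.1% (mouse 30 non-clonal) and 78.7% (mouse 32 non-clonal). With leading segments of at least 2 UMIs it was 97.4% in the mouse 30 clone and 49.8% in the mouse 32 clone. Matching by subfamily gave 91.4% in mouse 30 non-clonal cells and 48.7% in the mouse 32 clone. With the clone set by the authors' most frequent clonotype, TRAV9-2 was found in 51.6%. Depth limits these shares, since the median TRAV9-2 contig had 2 UMIs.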
